A study of Rattus norvegicus with 50 samples.

Results

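Nevirapine given for 15 d was compared with vehicle in the livers of 6 female Brown Norway rats, 3 in each group, out of the 50 livers of the series. The members are all 14217 genes that probe sets of the Affymetrix rat expression array name alone, chosen by the annotation and the labels and not by measured values. The rats were of the Bn/Crl strain with the MHC haplotype RT1n, 9 to 11 weeks old, and whole liver was snap frozen. The series as a whole followed rats given nevirapine, galactosamine or both, because the combination, and neither drug alone, was reported to give fibrosis over 8 d.

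The nevirapine rats (rats 43, 44 and 45) were sampled 15 d after their first oral dose, 2 h after dose 16, and had a sham injection into the abdomen 8 d before. The treatment text gives 150 mg/kg on the first day, 100 mg/kg on the next 2 days, a day without drug and then 75 mg/kg, while the design text gives 75 mg/kg alone for these rats. The vehicle rats (rats 13, 14 and 15) are labelled 15 d after a sham injection and 2 h after a sham oral dose, so the time since the injection differs between the groups as labelled. Further groups of 3 rats used below are vehicle rats 8 d after a sham injection, nevirapine rats 48 h after the first dose with their own vehicle rats, and combination rats, which had 15 d of nevirapine and 750 mg/kg galactosamine 8 d before sampling. The labels give no dates, so batches could not be examined. The p-values rest on the spread between rats within groups, estimated over all 17 groups of the series.

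Nevirapine is a non-nucleoside inhibitor of the reverse transcriptase of HIV, known for liver injury and rash and for inducing its own metabolism. In liver, many foreign compounds activate the nuclear receptors CAR (Nr1i3) and PXR (Nr1i2), which pair with RXR and bind direct or everted repeats near cytochrome P450, transferase and transporter genes. The P450 enzymes oxidise a drug, the transferases attach glucuronic acid, sulfate or glutathione, and the transporters carry the products to bile or blood.

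Of the 14217 genes, 1978 (13.9%) passed an adjusted p under 0.05 in a linear model over all 50 arrays, 729 higher (5.13%) and 1249 lower (8.79%) in the nevirapine rats. The changes were mostly small. A rise of more than 2-fold was measured in 68 of the called genes and a fall of more than 2-fold in 60. The 3 nevirapine rats lay wholly above or below the 3 vehicle rats in 6329 genes (44.5%), so non-overlap is common here and is given for named genes as a description. The median difference over all genes was -0.04 (log2). Albumin (Alb), a defining hepatocyte marker, differed by 0.01 ± 0.05 (SE, log2), with overlapping groups.

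Facts that touch every result concern RNA and the choice of control. The difference between the 3′ and 5′ probe sets of GAPDH, a sign of RNA quality, was 0.1971 to 0.2109 (log2) in the nevirapine rats and 0.0347 to 0.1179 in the vehicle rats, without overlap. With this difference as a covariate, 1903 genes were called. The 15 d vehicle rats differed from the 8 d vehicle rats in 473 genes (3.33%), 236 higher (1.66%) and 237 lower (1.67%), and in 181, 154 and 188 genes without rats 13, 14 and 15 and 135 to 235 without each of the 8 d vehicle rats. Against the 8 d vehicle rats the nevirapine rats differed in 849 genes (5.97%), of which 537 were also called in the same direction against the 15 d vehicle rats. The part of either in the results was not tested. Leaving out rat 44, 45, 13 or 14 left 1147, 1253, 1294 or 1316 called genes.

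**Figure D1:**
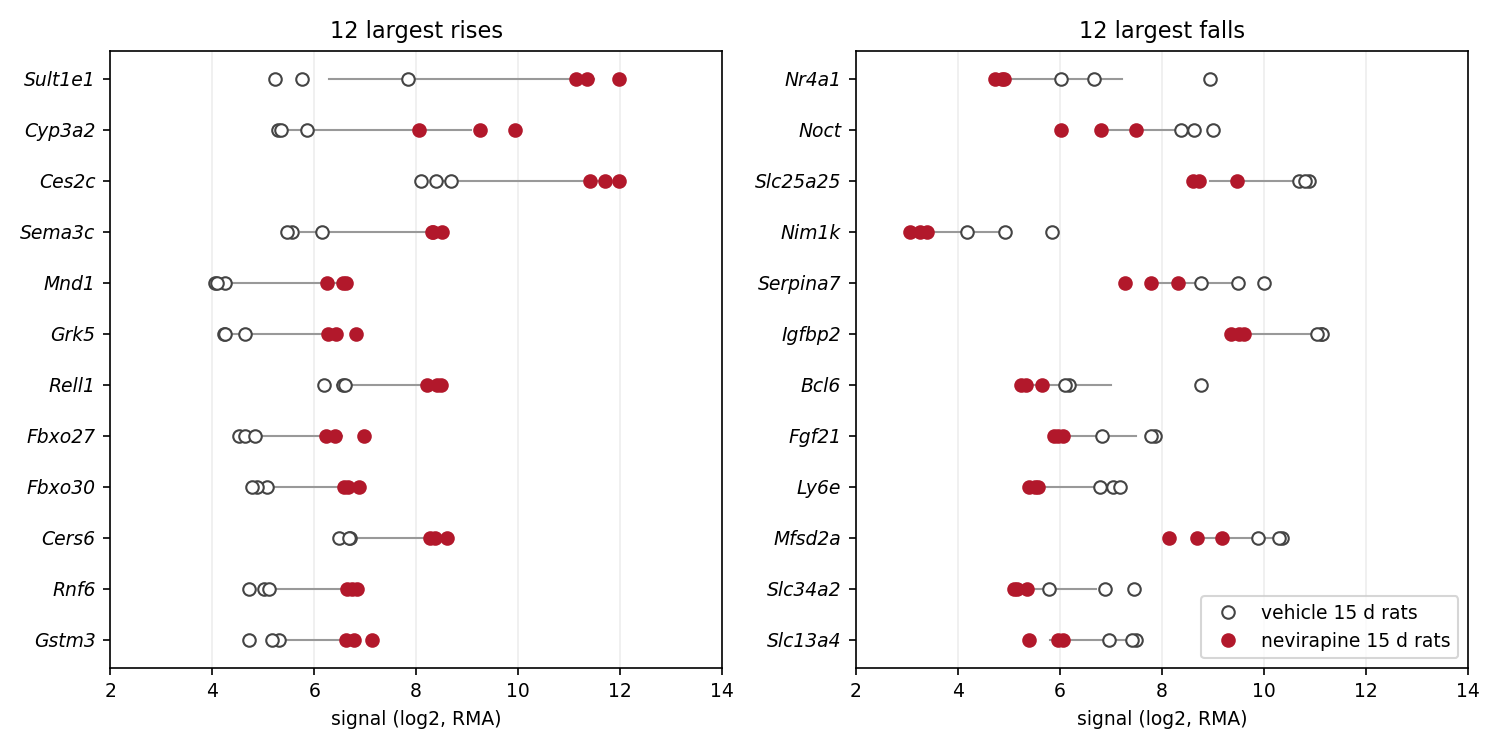
Signal (log2, horizontal axis) of the 12 genes with the largest rise (left) and the 12 with the largest fall (right) in each rat. Open points are the 3 vehicle rats, filled points the 3 nevirapine rats, and lines join the group means. The groups do not overlap in any of the 24 genes, and single vehicle rats stand apart for Sult1e1, Nr4a1 and Bcl6.

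The largest rise was in Sult1e1, the oestrogen sulfotransferase, which adds sulfate to oestrogens. Its log2 signal was 11.14, 11.97 and 11.34 in the nevirapine rats and 7.84, 5.77 and 5.24 in the vehicle rats. All 3 nevirapine rats lay more than 3 log2 units above the highest vehicle rat, rat 13, which stood apart from the other vehicle rats. The difference was 5.20 ± 0.67 (SE), or 36.8-fold (adjusted p = 1.28e-06). Of the 13 cytosolic sulfotransferases on the array, Sult1e1 was the only member that passed the test, and Sult1b1 had a difference of 0.45 (adjusted p = 0.0537).

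Cyp3a2 followed, a P450 that is a classic PXR target in rats and more abundant in males. Its log2 signal was 8.06, 9.93 and 9.25 under nevirapine against 5.30, 5.86 and 5.36 under vehicle, a difference of 3.58 ± 0.75 (adjusted p = 0.000972). The nevirapine rats differed among themselves, with rat 43 lowest. Against the 8 d vehicle rats, whose values were 6.37, 8.89 and 5.10, the difference was 2.29 and was not called, the highest adjusted p over the alternatives being 0.0621. Ces2c, a carboxylesterase that splits ester drugs, was at 11.40, 11.98 and 11.71 against 8.69, 8.39 and 8.09. Its groups were tight and far apart, with a difference of 3.31 ± 0.25, or 9.89-fold (adjusted p = 1.2e-11).

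Among P450 genes of the CAR and PXR list, a minority rose. Of 9 members on the array, 3 rose and none fell, with a list median of 0.37 against -0.04 for all genes. Cyp3a23-3a1 went from 12.96, 13.26 and 12.91 to 13.54, 13.60 and 13.56, and Cyp2c6v1 from 13.03, 13.17 and 13.10 to 13.43, 13.53 and 13.44. Both were already bright in vehicle rats, and their differences were 0.53 ± 0.13 and 0.37 ± 0.08 (adjusted p = 0.00575 and 0.00132). Cyp3a9 had a difference of 0.82 ± 0.30 (adjusted p = 0.0627) and Cyp2b3 one of -0.20. The main CAR target genes Cyp2b1 and Cyp2b2 share a probe set with several symbols and were not analysed here.

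The promoters of Cyp3a2 and Cyp3a23-3a1 are shown because a search of these stretches found a direct repeat of receptor binding letters in both. The search was chosen after the values were seen. It took a repeat of 2 hexamers, each AGGTCA or AGTTCA, with 3 bases between (called DR3), on both strands, in the 300 bases from 250 before to 50 after each start site. The repeat occurred in 14 of 33469 RefSeq promoters (0.0418%) and in the promoters of 4 of 11700 genes on the array (0.0342%), these being Cyp3a2, Cyp3a23-3a1, Prl3b1 and Prss56. Sequences are from RefSeq (GRCr8) and read 5′ to 3′ on the gene's strand, with the repeat, which reads on the opposite strand, in capitals. Cyp3a2 lies at chr12:14343808-14344107 on the minus strand and Cyp3a23-3a1 at chr12:14398754-14399053 on the minus strand. The first base of the repeat is at -131 in Cyp3a2 and at -144 in Cyp3a23-3a1, counted from the start site.
Cyp3a2: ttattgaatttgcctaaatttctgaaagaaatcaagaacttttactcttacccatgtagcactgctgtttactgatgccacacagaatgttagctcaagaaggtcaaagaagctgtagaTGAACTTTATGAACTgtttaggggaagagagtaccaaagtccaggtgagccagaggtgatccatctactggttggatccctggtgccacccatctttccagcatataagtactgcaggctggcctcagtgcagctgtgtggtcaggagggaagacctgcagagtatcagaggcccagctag
Cyp3a23-3a1: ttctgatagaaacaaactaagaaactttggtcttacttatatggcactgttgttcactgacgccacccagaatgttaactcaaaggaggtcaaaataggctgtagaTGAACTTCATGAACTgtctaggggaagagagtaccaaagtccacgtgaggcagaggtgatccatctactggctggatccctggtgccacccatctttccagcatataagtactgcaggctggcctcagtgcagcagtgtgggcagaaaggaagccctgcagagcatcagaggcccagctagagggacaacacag
A match is a description of the letters and not a measured binding site. The same repeat with 4 bases between was in 2 genes on the array, and the hexamers facing apart with 6 bases between in none.

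Other targets of the same receptors rose too. Of 15 members of the list of conjugation and other enzymes on the array, 9 rose and none fell, with a median of 1.15. Of the 9, Ugt2b1, Ugt2b15 and Gstm1 are conjugating enzymes, Ces2c, Ephx1, Alas1 and Aldh1a1 other enzymes, and Gadd45b and Tsku no enzymes. The conjugation genes Sult2a1 and Papss2 had differences of 0.25 and -0.24 and did not pass the test. Between 7 and 8 rose with each of the 6 rats left out in turn, and 9 rose against the 8 d vehicle rats, where 2.21% of all genes rose. Ugt2b1, which attaches glucuronic acid, was at 12.69, 12.96 and 12.82 against 11.07, 11.44 and 11.00, a difference of 1.65 ± 0.20 (adjusted p = 8.29e-07). Alas1, the rate-limiting enzyme of heme synthesis, was at 11.81, 12.12 and 12.08 against 10.29, 11.27 and 10.92, a difference of 1.18 ± 0.23. Tsku, a secreted protein, rose by 1.36 ± 0.30, and Gstm1, a glutathione transferase, by 1.18 ± 0.20. Aldh1a1, which oxidises retinal, rose by 1.21 ± 0.29, with an adjusted p of 0.00357 that became 0.0584 without rat 15.

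**Figure D2:**
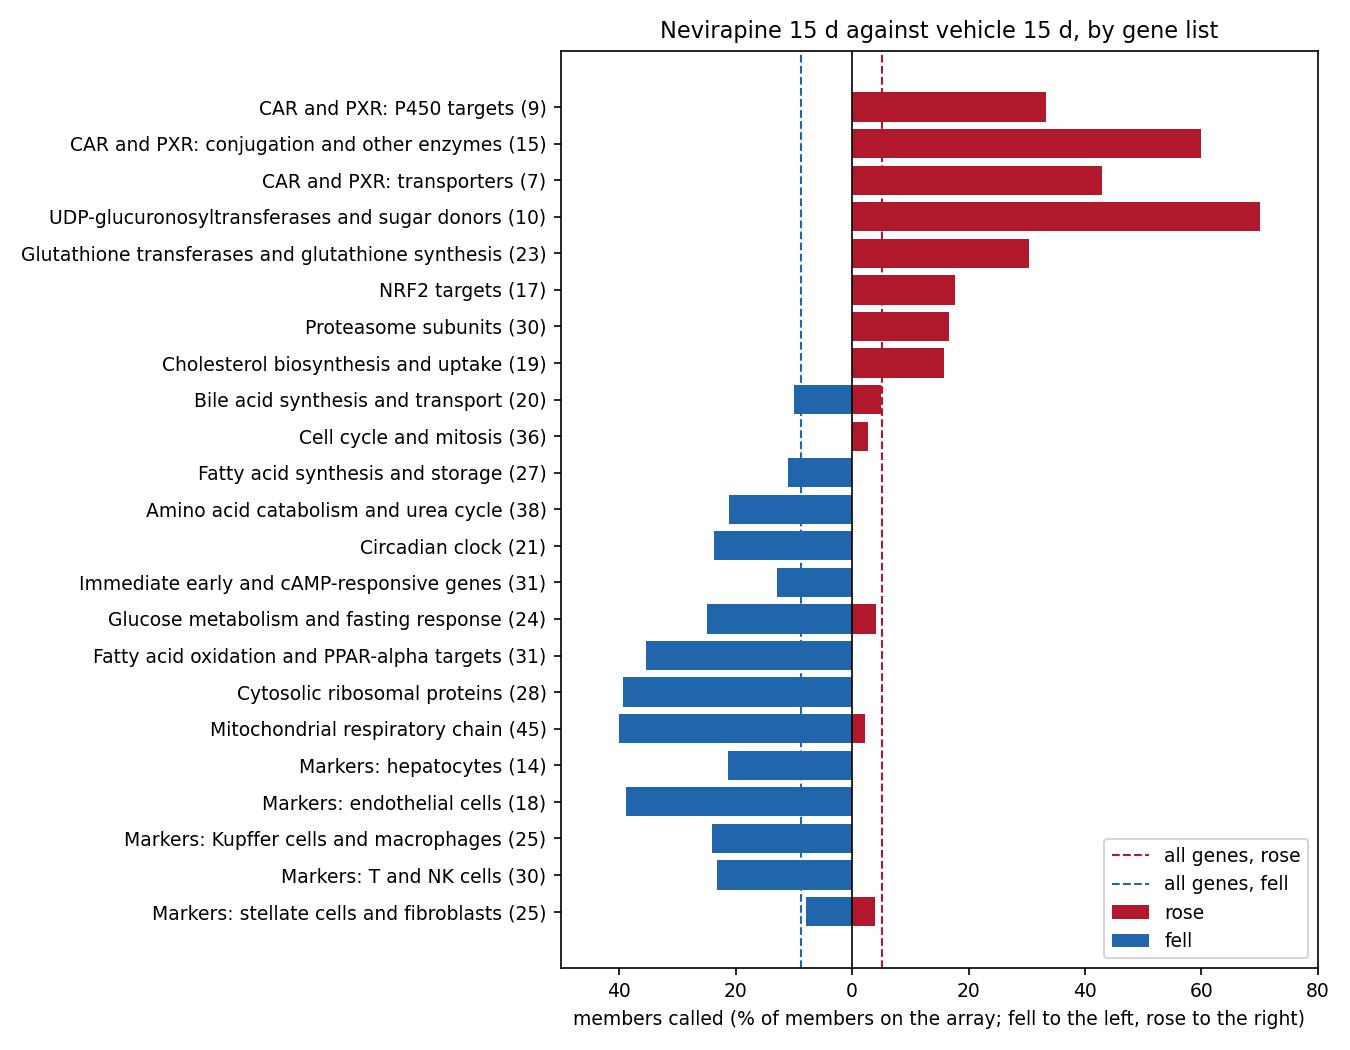
Share of the members on the array that rose (right, red) or fell (left, blue) in each gene list, in percent, with the number of members in brackets. Dashed lines mark the shares over all genes, 5.13% higher and 8.79% lower. The lists of drug conjugation stand to the right, and those of the respiratory chain, ribosomal proteins, fatty acid oxidation and endothelial markers to the left.

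Of the 7 transporters of these receptors on the array, 3 rose and none fell, with a median of 0.28. Abcc3, which exports conjugates to the blood, was at 8.66, 9.18 and 8.95 against 7.36, 7.88 and 6.83, a difference of 1.58 ± 0.27 (adjusted p = 0.000113). Abcb1a, a drug efflux pump, had a difference of 0.58 ± 0.18 (adjusted p = 0.0272, but 0.109, 0.0968 and 0.248 without rats 44, 45 and 15). Abcc2, the pump for conjugates into bile, had 0.55 ± 0.17 (adjusted p = 0.0248), lost without any of rats 43, 44, 45, 14 or 15 (0.0529, 0.0626, 0.0859, 0.0697 and 0.0941) and against the 8 d vehicle rats.

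Neither PXR nor CAR rose. Nr1i2 (PXR) was at 8.14, 7.86 and 7.85 against 8.70, 8.60 and 8.63, a fall of 0.69 on the log2 scale, SE 0.23. Its adjusted p of 0.0411 rested on all rats but rat 43, since without rats 44, 45, 13, 14 and 15 it was 0.133, 0.128, 0.113, 0.0845 and 0.0935. Nr1i3 (CAR) had a difference of -0.58 ± 0.31 (adjusted p = 0.239). Ahr, the dioxin receptor, rose from below the level of bacterial control probe sets in vehicle rats, by at least 2.14-fold, but its other probe set gave -0.07 and against the 8 d vehicle rats the difference was 0.39 and not called. Of the 12 receptors and partners on the array, these 2 changes, in Ahr and Nr1i2, were the calls.

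Several genes of glucuronidation rose. Of 10 UDP-glucuronosyltransferases and sugar donor enzymes on the array, 7 rose and none fell, with a median of 0.69. Ugt2b35 was at 12.47, 12.68 and 12.60 against 11.56, 11.68 and 11.61, a difference of 0.97 ± 0.13 (adjusted p = 1.54e-06). Ugt2a1 rose by 1.16 ± 0.23 and Ugt2b15 by 0.80 ± 0.16. Ugdh, which makes the glucuronic acid donor, rose by 0.62 ± 0.17 (adjusted p = 0.0128, and 0.0505, 0.0563 and 0.0958 without rats 43, 44 and 15), and it did not differ to a call against the 8 d vehicle rats. Genes of the Ugt2b group resemble each other, so their probe sets may share signal. Ugt1a1, Ugt1a2, Ugt1a3, Ugt1a5, Ugt1a6, Ugt1a7c, Ugt1a8 and Ugt1a9 were not among the genes analysed, so the counts do not cover them.

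Of 23 genes of glutathione conjugation and synthesis on the array, 7 rose and none fell, with a median of 0.17. Gstm3 was at 7.14, 6.78 and 6.62 against 5.31, 5.17 and 4.72, a difference of 1.78 ± 0.40 (adjusted p = 0.00188). Gsta3 was at 10.38, 10.69 and 10.57 against 9.06, 9.63 and 8.01, a difference of 1.65 ± 0.38. Gclm, a subunit of the rate-limiting enzyme of glutathione synthesis, rose by 0.92 ± 0.21. Neither Gsta3 nor Gclm was called against the 8 d vehicle rats, where they differed by 1.16 and 0.27. Of 17 targets of the oxidative stress factor NRF2, 3 rose (17.6%, against 5.13% of all genes) and none fell, with a median of 0.41. Between 1 and 3 rose with each rat left out, and 1 against the 8 d vehicle rats. Against all 15 vehicle rats taken as a control 6 rose, and 5 with the GAPDH difference as a covariate. Nqo1 had a difference of 0.49 (adjusted p = 0.102).

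Other large rises were in genes outside drug metabolism. Sema3c, a secreted guidance protein, was at 8.30, 8.33 and 8.51 against 5.57, 5.47 and 6.16, a difference of 2.65 ± 0.41 (adjusted p = 2.17e-05). Grk5, a kinase of G protein-coupled receptors, was at 6.27, 6.83 and 6.42 against 4.65, 4.23 and 4.24, a difference of 2.13 ± 0.24. Rell1, a relative of the TNF receptor RELT, was at 8.21, 8.48 and 8.41 against 6.56, 6.60 and 6.19, a difference of 1.91 ± 0.23. The nevirapine rats were close to each other in all 3 genes and well clear of the vehicle rats.

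Cers6, which makes ceramides, was at 8.26, 8.61 and 8.37 against 6.48, 6.69 and 6.69, a difference of 1.80 ± 0.26. Fbxo27, a subunit of ubiquitin ligases, was at 6.41, 6.97 and 6.23 against 4.53, 4.65 and 4.84, a difference of 1.86 ± 0.24. Mnd1, a factor of meiotic recombination, was below the bacterial control level in the vehicle rats and at 6.26, 6.62 and 6.57 under nevirapine, at least 4.33-fold higher. Fbxo30 and Rnf6, both of ubiquitin ligases, rose by 1.80 ± 0.26 and 1.79 ± 0.22, but against the 8 d vehicle rats they differed by 0.80 and 0.59 and were not called.

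**Figure D3:**
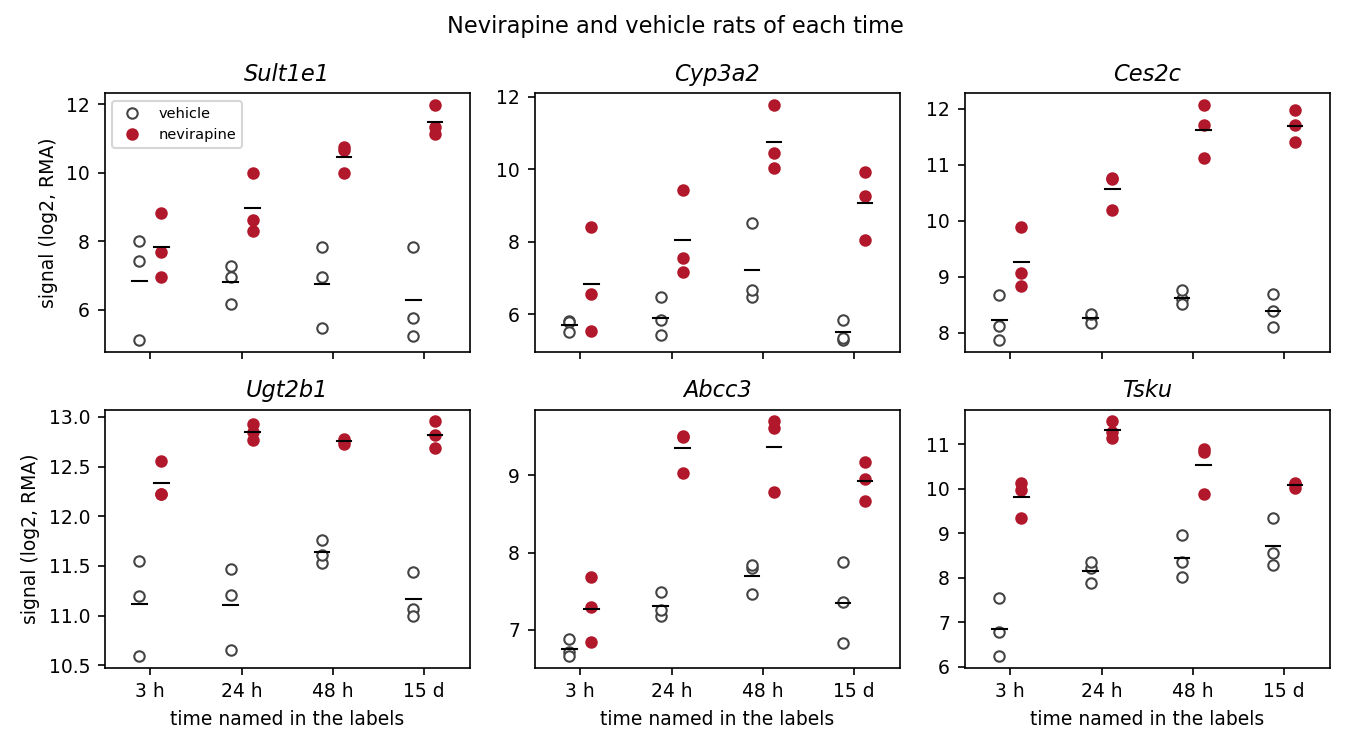
Signal (log2) of Sult1e1, Cyp3a2, Ces2c, Ugt2b1, Abcc3 and Tsku in nevirapine rats (filled) and the vehicle rats of the same labelled time (open). Each group has 3 rats, and bars mark the means. Nevirapine rats lie above their vehicle rats in all 6 genes at 24 h, 48 h and 15 d.

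Earlier times of nevirapine were compared too, each time with its own vehicle rats. Of the 729 genes that rose at 15 d, 331 were called higher at 3 h, 144 at 24 h and 291 at 48 h, and 3, 50 and 34 were called lower. Of the 12 genes with the largest rise at 15 d, 6 were called higher at 3 h, 9 at 24 h and 11 at 48 h, against 7.59%, 4.55% and 11.0% of all genes. Of the 12 with the largest fall, 1 was called lower at 3 h, 1 at 24 h and 4 at 48 h, while 2, 1 and 0 were called higher. The shares of all genes called lower at these times were not computed, so these counts are a description. Sult1e1 differed by 3.72 at 48 h, Cyp3a2 by 3.53 and Ces2c by 3.01. The test of the 15 d effect minus the 48 h effect called 1 of the 12, Rnf6 (1.23 ± 0.31, adjusted p = 0.0130). For Sult1e1 this difference was 1.48 ± 0.95 (adjusted p = 0.363), and for Cyp3a2 it was 0.05 ± 1.06 (adjusted p = 0.983), so changes of a few fold between the times would not be detectable for these genes.

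The largest fall was in Nr4a1, an immediate early nuclear receptor. It was at 4.72, 4.90 and 4.87 under nevirapine and at 8.94, 6.68 and 6.02 under vehicle, a difference of -2.39 ± 0.64 (adjusted p = 0.00914). Rat 13 stood far above the other vehicle rats, and without it the adjusted p was 0.146. Slc25a25, a mitochondrial carrier of ATP-Mg and phosphate, was at 9.48, 8.61 and 8.73 against 10.88, 10.69 and 10.81, a difference of -1.85 ± 0.41. Sik1, a kinase induced by cAMP, was at 6.44, 6.33 and 6.12 against 8.12, 7.55 and 7.53, a difference of -1.44 ± 0.28.

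These 3 genes were higher in the 15 d vehicle rats than in the 8 d vehicle rats. The 15 d vehicle rats are shared with the comparison above, so their high values enter both and neither bears out the other. The differences between the vehicle groups were 2.30 ± 0.64 for Nr4a1, 1.72 ± 0.41 for Slc25a25 and 1.41 ± 0.28 for Sik1 (adjusted p = 0.0363, 0.0147 and 0.00272). The 8 d vehicle rats lay at 4.86, 4.83 and 5.06 for Nr4a1, at the level of the nevirapine rats. Against them the nevirapine rats differed by -0.09 for Nr4a1, -0.14 for Slc25a25 and -0.03 for Sik1, none of them called. Of 31 immediate early and cAMP-responsive genes on the array, 4 fell (12.9%, against 8.79% of all genes) and none rose against the 15 d vehicle rats. The list median was -0.10. Between 1 and 4 fell with each rat left out in turn, and none fell against the 8 d vehicle rats.

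**Figure D4:**
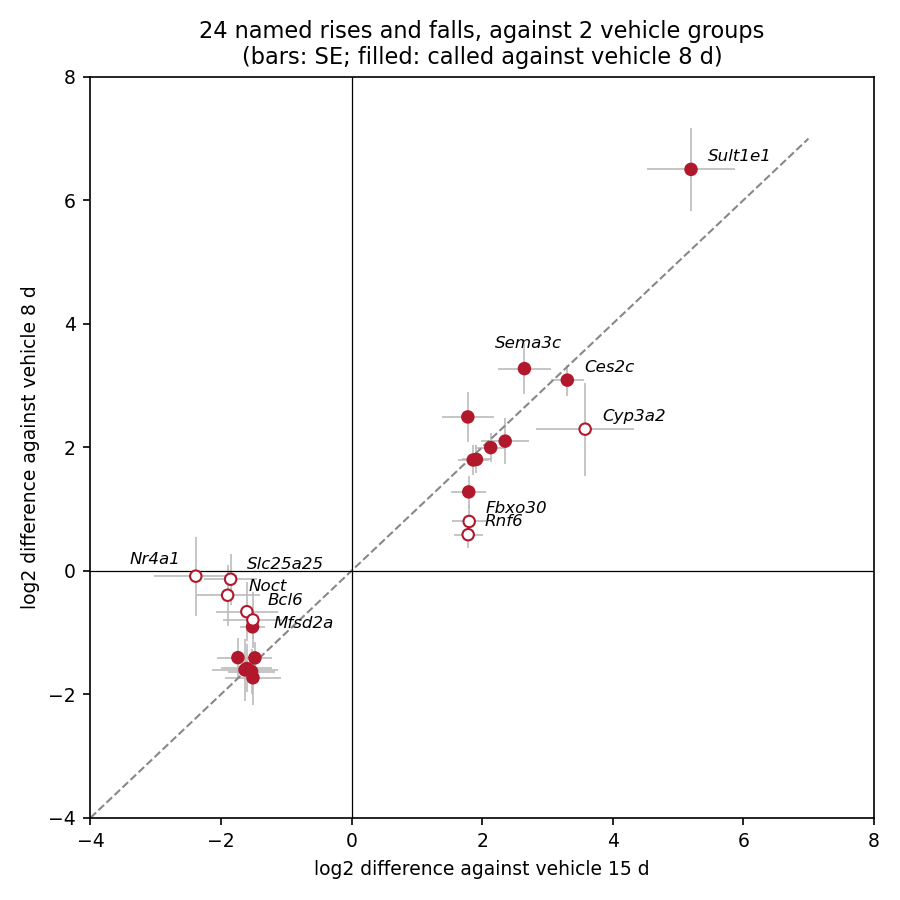
Difference of the nevirapine rats (log2) from the 15 d vehicle rats (horizontal) and from the 8 d vehicle rats (vertical) for the 24 genes with the largest rises and falls, with bars for the SE. The dashed line marks equal differences, and open points are the 8 genes not called against the 8 d vehicle rats. Both axes share the nevirapine rats.

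Slc25a25 is shown with its promoter because it holds the full cAMP response element TGACGTCA, searched after the values were seen. The element was found in 612 of 33469 promoters (1.83%) and in those of 343 of 11700 genes on the array (2.93%), among them 24 of the 1058 fallen and 21 of the 614 risen genes with an entry. The promoter lies at chr3:36116532-36116831 in GRCr8, RefSeq, and the element, in capitals, starts at -158.
Slc25a25: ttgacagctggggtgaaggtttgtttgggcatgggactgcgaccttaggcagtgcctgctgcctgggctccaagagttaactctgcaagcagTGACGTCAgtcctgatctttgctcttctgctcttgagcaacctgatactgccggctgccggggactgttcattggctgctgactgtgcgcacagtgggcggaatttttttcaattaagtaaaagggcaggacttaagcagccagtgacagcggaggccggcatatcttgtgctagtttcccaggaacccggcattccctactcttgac
The promoters of Nr4a1 and Sik1 held no full element and had 4 and 2 matches of the shorter TGACG, which 7097 promoters (21.2%) hold.

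Genes of the daily clock made up part of the falls. Of 21 on the array, 5 fell and none rose (8.79% of all genes fell), with a median of -0.05 against -0.04 for all genes. Against all 15 vehicle rats taken as a control, 6 fell and 3 rose, with a median of -0.35. Noct, a clock-regulated phosphatase, was at 7.50, 6.01 and 6.81 against 8.38, 8.63 and 9.01, a difference of -1.90 ± 0.49 (adjusted p = 0.00693, and 0.0761 without rat 44). Usp2, a clock-controlled ubiquitin protease, was at 6.62, 6.48 and 6.86 against 7.54, 8.32 and 7.81, a difference of -1.24 ± 0.25, and -1.13 against the 8 d vehicle rats. The core clock genes Bmal1, Per2 and Nr1d1 differed by 0.17, -0.01 and -0.34 and did not pass the test. Between 2 and 4 members fell with each rat left out in turn, and 2 against the 8 d vehicle rats, where Noct differed by -0.39. The time of day of sampling is not given in the labels.

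Several large falls were as large against either vehicle group. Fgf21, a liver hormone of fasting, was at 5.88, 6.06 and 5.96 against 7.87, 7.80 and 6.82, a difference of -1.53 ± 0.36 (adjusted p = 0.00290), and -1.63 against the 8 d vehicle rats. Igfbp2, a carrier of insulin-like growth factors, was at 9.36, 9.52 and 9.62 against 11.13, 11.14 and 11.05, a difference of -1.61 ± 0.39 and -1.58. Slc13a4, a sulfate transporter, was at 5.97, 5.40 and 6.07 against 7.50, 7.42 and 6.96, a difference of -1.48 ± 0.26 and -1.41. The nevirapine rats were below all vehicle rats in each.

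Ly6e, a membrane protein induced by interferon, was at 5.51, 5.40 and 5.57 against 7.05, 6.79 and 7.18, a difference of -1.52 ± 0.20 and -0.91 against the 8 d vehicle rats. Its other probe set gave -0.37 (adjusted p = 0.209). Nim1k, a kinase, fell at least 1.52-fold from 4.92, 5.84 and 4.17 to below the bacterial control level. Serpina7, the thyroxine carrier of plasma, had a difference of -1.63 ± 0.50 (adjusted p = 0.0239), which was 0.0591, 0.133, 0.0695 and 0.132 without rats 43, 44, 13 and 15. Slc34a2, a phosphate transporter, had -1.51 ± 0.43 (adjusted p = 0.0153), which was 0.0546, 0.0556, 0.0592 and 0.131 without rats 44, 45, 13 and 14.

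Bcl6, a repressor, and Mfsd2a, a lipid transporter, rested on fewer rats. Bcl6 was at 5.64, 5.34 and 5.25 against 6.17, 8.77 and 6.10, a difference of -1.60 ± 0.48 (adjusted p = 0.0190). Rat 14 alone stood high, and the adjusted p was 0.346 without it, 0.0659 without rat 44 and 0.0695 without rat 45. Mfsd2a was at 9.19, 8.14 and 8.68 against 9.89, 10.35 and 10.31, a difference of -1.51 ± 0.45 (adjusted p = 0.0198, and 0.127, 0.0554, 0.0715 and 0.0673 without rats 44, 45, 14 and 15). Against the 8 d vehicle rats neither was called, at -0.66 and -0.79.

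Part of the fatty acid oxidation genes fell. Of 31 genes of fatty acid oxidation and targets of PPAR-alpha on the array, 11 fell and none rose, with a median of -0.40 against -0.04 for all genes. Hadha, a subunit of the mitochondrial trifunctional protein, was at 9.98, 9.77 and 9.82 against 10.93, 10.86 and 10.80, a difference of -1.005 ± 0.097 (adjusted p = 9.01e-09), while its other probe sets gave -0.09 and -0.38 and were not called. Acot3, an acyl-CoA thioesterase, was at 7.58, 7.41 and 7.32 against 8.80, 8.71 and 8.36, a difference of -1.19 ± 0.24. Cpt1a, which admits fatty acids to mitochondria, was at 11.45, 10.94 and 11.36 against 12.23, 12.04 and 12.18, a difference of -0.90 ± 0.20, and -0.47 and not called against the 8 d vehicle rats. Ppara itself had a difference of 0.28 (adjusted p = 0.343). Of the list, 11 also fell against the 8 d vehicle rats, where 3.76% of all genes fell, and without rat 44 or rat 13 the count was 7.

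Part of the respiratory chain genes fell too. Of 45 subunits on the array, 18 fell and 1, Cox5a, rose, with a median of -0.24, and the rise of Cox5a was not called without rat 44 or rat 15. Ndufs7, of complex I, was at 10.16, 9.99 and 10.14 against 10.93, 10.81 and 10.83, a difference of -0.76 ± 0.10 (adjusted p = 9.47e-07). Ndufv1 and Ndufs8, also of complex I, differed by -0.62 ± 0.10 and -0.64 ± 0.12, and Atp5f1d, of the ATP synthase, by -0.58 ± 0.09. In 39 of the 45 genes the nevirapine rats lay wholly below the vehicle rats, against 27.6% of all genes. Against the 8 d vehicle rats 9 of the 45 fell, and Ndufs8 (-0.25) and Atp5f1d (-0.28) were not called.

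Some genes of cytosolic ribosomal proteins fell likewise. Of 28 on the array, 11 fell and none rose, with a median of -0.23. Rpsa was at 11.00, 11.02 and 11.04 against 11.53, 11.60 and 11.68, a difference of -0.58 ± 0.08 (adjusted p = 1.76e-06), and Rpl18 differed by -0.47 ± 0.10. The count was 6 or 7 with each of the 6 rats left out in turn, and 6 against the 8 d vehicle rats. Ribosomal proteins have many near-identical copies in the genome, so their probe sets may share signal.

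**Figure D5:**
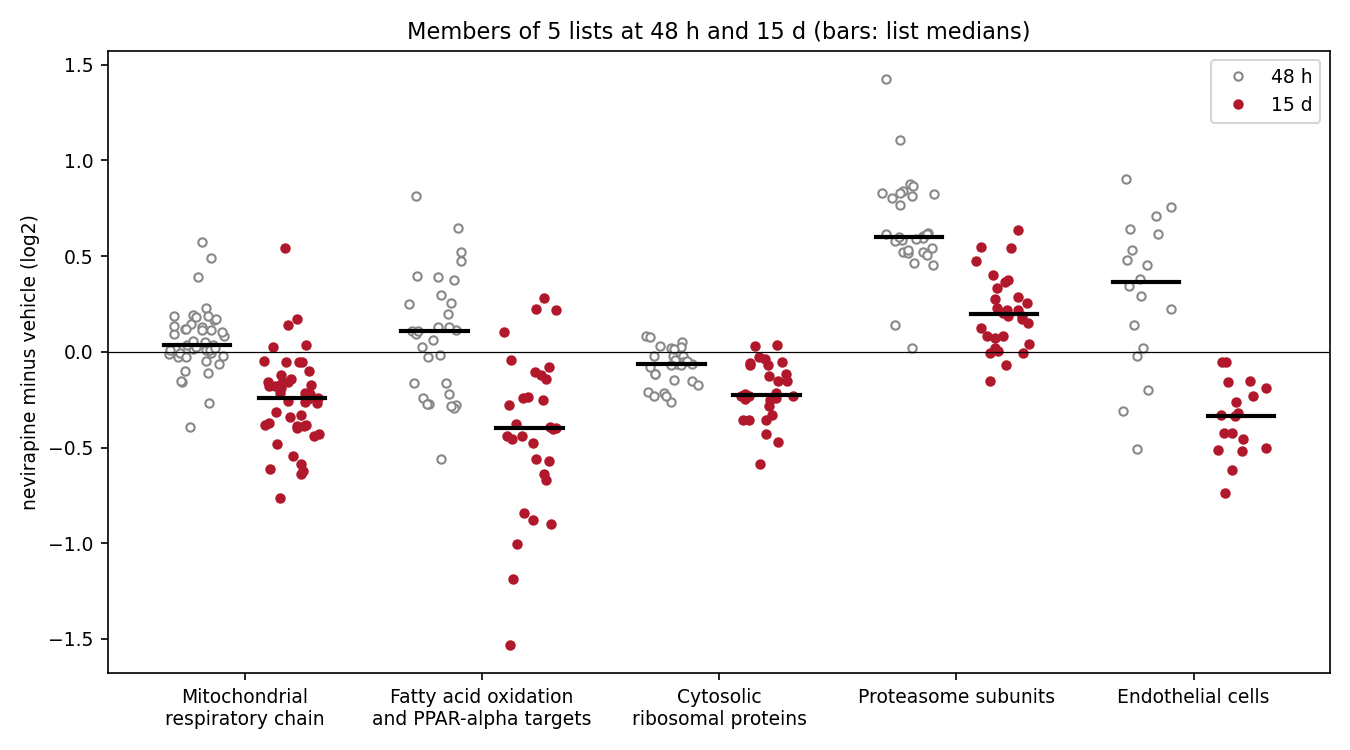
Difference between nevirapine and vehicle rats (log2, vertical axis) for each member of 5 lists at 48 h (open) and 15 d (filled), with bars for the list medians. Medians of the respiratory chain, fatty acid oxidation and endothelial markers lie above 0 at 48 h and below 0 at 15 d, and proteasome subunits lie lower at 15 d than at 48 h.

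The effect at 15 d was compared with that at 48 h. The GAPDH difference was 0.48, 0.61 and 0.74 (log2) in the 48 h vehicle rats. In the 48 h nevirapine rats it was 0.86, 0.01 and 0.10 (rats 40, 41 and 42). It was not used as a covariate here, and its part in the comparisons with 48 h was not tested. The 15 d effect minus the 48 h effect was called in 1018 genes (7.16%), 272 higher (1.91%) and 746 lower (5.25%), and in 608, 603, 561, 619 and 671 without rats 45, 12, 14, 44 and 13. Of the 45 respiratory chain genes, 12 were called lower and 1 higher, of the 31 genes of fatty acid oxidation 5 were lower, and of the 28 ribosomal proteins 2 were lower. Hadha differed by -0.77 (adjusted p = 0.000534) and Ndufs7 by -0.66 (adjusted p = 0.00228). Fgf21 moved from a difference of 0.82 at 48 h, which did not pass the test, to -1.53 at 15 d, a change of -2.35 ± 0.51 (adjusted p = 0.00382).

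Subunits of the proteasome were called higher in larger number at 48 h than at 15 d. At 48 h 28 of the 30 on the array rose, with a median of 0.60, and at 15 d 5 rose, with a median of 0.20. Of all genes, 11.0% rose at 48 h and 5.13% at 15 d. The change from 48 h to 15 d was called lower in 8 and higher in none (5.25% and 1.91% of all genes). Psmc6 still rose at 15 d, at 10.34, 10.60 and 10.44 against 9.83, 9.93 and 9.71, a difference of 0.64 ± 0.12 (adjusted p = 0.000392), and 0.19, not called, against the 8 d vehicle rats. Between 1 and 5 subunits rose with each rat left out in turn, and none rose against the 8 d vehicle rats, where the median was 0.18. Against all 15 vehicle rats taken as a control 15 rose, with a median of 0.35 (1078 of all 14217 genes rose there). With the GAPDH difference as a covariate 8 rose.

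Other metabolic genes fell in part. Of 38 genes of amino acid breakdown and the urea cycle, 8 fell and none rose, with a median of -0.26, 3 to 7 fell with each rat left out in turn, and 5 fell against the 8 d vehicle rats. Gldc, of the glycine cleavage system, was at 7.76, 6.81 and 7.47 against 9.04, 8.42 and 8.90, a difference of -1.44 ± 0.32, though its other probe sets gave -0.01 and -0.08. Tat, which breaks down tyrosine and is counted as a hepatocyte marker too, was at 9.63, 9.36 and 9.62 against 10.78, 10.65 and 10.94, a difference of -1.25 ± 0.31, and -0.75 and not called against the 8 d vehicle rats. Of 24 genes of glucose metabolism and fasting, 6 fell and 1 rose (4 to 7 fell with each rat left out), and against the 8 d vehicle rats 2 fell and none rose. Pc, pyruvate carboxylase, fell by 0.85 on the log2 scale, SE 0.17, and Pck1, the rate-limiting enzyme of glucose synthesis, had a difference of -0.17 (adjusted p = 0.728).

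A minority of the cholesterol and bile acid genes was called. Of 19 genes of cholesterol synthesis and uptake, 3 rose (15.8%, against 5.13% of all genes) and none fell, with a median of 0.18. Against the 8 d vehicle rats 1 rose, and the median was -0.12. Cyp51, of sterol synthesis, was at 9.39, 10.17 and 9.75 against 8.34, 8.88 and 7.88, a difference of 1.40 ± 0.45 (adjusted p = 0.0291, and 0.141, 0.0739, 0.0771 and 0.147 without rats 44, 45, 13 and 15), and 0.20 against the 8 d vehicle rats. Between none and 4 of the list rose with each rat left out. Of 20 bile acid genes, 1 rose and 2 fell, near the shares of all genes (up to 1 and up to 2 with each rat left out), and Cyp7a1, the rate-limiting enzyme, differed by 0.04 ± 0.69.

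In each stress list a minority was called against the 15 d vehicle rats. Of all genes, 5.13% rose and 8.79% fell there. Of 25 genes of the unfolded protein response, 3 rose (1 to 2 with each rat left out) and 1 fell, while against the 8 d vehicle rats 1 rose and 5 fell, with a median of -0.21 (3.76% of all genes fell). Hspa5, the central chaperone of the response, differed by 0.18 from the 15 d vehicle rats (adjusted p = 0.472). Of 24 targets of ATF4, 1 rose (4.17%) and 4 fell (16.7%). With each rat left out none rose and 2 fell, and against the 8 d vehicle rats 1 rose and 1 fell. Among the 4 that fell were Fgf21 and Sesn2, a brake on growth signals. Sesn2 differed by -1.23 ± 0.19, and by -0.50, not called, against the 8 d vehicle rats. Of 18 genes of p53 and cell death, 4 rose (22.2%), 1 to 3 with each rat left out and none against the 8 d vehicle rats. Cdkn1a, the p53 target that stops the cell cycle, differed by -0.54 (adjusted p = 0.333). Of 36 cell cycle genes, 1 rose, Stmn1, not called without any 1 of rats 43, 44, 45, 13 and 15. The differences were positive in 30 and negative in 6, with a median of 0.18. In 17 the nevirapine rats lay wholly above the vehicle rats, against 16.9% of all genes. In 14 of the 36 both groups were below the bacterial control level. Mki67, the proliferation marker, differed by 0.70 (adjusted p = 0.448).

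Some markers of endothelial cells, macrophages and T and NK cells fell, as did some of hepatocytes and of B and plasma cells. In whole liver, fewer cells of a type and less RNA per cell cannot be told apart. Of 18 endothelial markers, 7 fell and none rose, with a median of -0.33, and the mean level of the list was 6.97 to 7.10 in the nevirapine rats and 7.32 to 7.41 in the vehicle rats. Esam, a junction protein of vessels, was at 6.69, 6.70 and 6.83 against 7.34, 7.15 and 7.24, a difference of -0.50 ± 0.13 (adjusted p = 0.00876, and 0.0509 without rat 13, the highest over its alternatives). Ramp2, a receptor partner, fell by 0.74 on the log2 scale, SE 0.19, where it had risen by 0.64 at 48 h, and it differed by -0.52, not called, from the 8 d vehicle rats. At 48 h 8 of the 18 rose (11.0% of all genes rose then). The change from 48 h to 15 d was called lower in 10 (5.25% of all genes). Between 3 and 5 fell with each rat left out, and 3 against the 8 d vehicle rats.

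Of 25 markers of Kupffer cells and macrophages, 6 fell and none rose, with a median of -0.58. The mean level of the list was 7.21 to 7.35 in the nevirapine rats and 7.65 to 7.88 in the vehicle rats. C1qa, a chain of the first complement component, was at 9.00, 9.01 and 9.16 against 9.84, 9.86 and 10.07, a difference of -0.87 ± 0.21 (adjusted p = 0.00441). C1qc differed by -0.93 ± 0.22, and the defining markers Cd68, Csf1r, Clec4f and Cd163 by -0.73, -0.72, -0.56 and -0.34, none of them called. Against the 8 d vehicle rats 10 of the 25 fell, against all 15 vehicle rats taken as a control 1 fell (11.8% of all genes fell) and C1qa and C1qc were not called, and 2 to 7 fell with each rat left out in turn.

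Of 30 markers of T and NK cells, 7 fell and none rose, 4 to 6 with each rat left out and 7 against the 8 d vehicle rats, but 14 of the 30 were below the bacterial control level in both groups. Prf1, perforin of killer cells, was at 4.52, 4.44 and 4.28 against 5.31, 5.70 and 5.85, a difference of -1.20 ± 0.24 (adjusted p = 0.000467). Ccl5, a chemokine of T cells, was at 6.36, 6.66 and 6.24 against 7.53, 7.76 and 7.50, a difference of -1.18 ± 0.23. Cd3e and Cd8a, defining T cell markers, differed by 0.07 and -0.12. Of 32 interferon genes, 5 fell, among them Irf8, at 6.27, 5.67 and 5.76 against 6.97, 6.88 and 6.96, a difference of -1.04 ± 0.20. Against the 8 d vehicle rats 1 of the 32 fell, and 1 to 3 fell with each rat left out.

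Markers of the remaining cells were called in smaller number, from lists of different lengths. Of 25 genes of stellate cells and fibroblasts, 1 rose and 2 fell (1 to 2 fell with each rat left out and none against the 8 d vehicle rats), and Col1a1, Col3a1 and Acta2 differed by 0.21, 0.15 and -0.08 with overlapping groups. Of 43 genes of extracellular matrix, 5 fell and none rose, a share near that of all genes, with 3 to 4 falling when each rat was left out and 1 against the 8 d vehicle rats. None of the 10 neutrophil, 18 mast cell and eosinophil or 6 red blood cell markers was called. Of the 14 hepatocyte markers, 3 fell (21.4%, against 8.79% of all genes), Tat, Asgr2 and Ahsg, and 2 fell against the 8 d vehicle rats. Of 11 B and plasma cell markers, 2 fell (18.2%), and of 13 cholangiocyte markers 1 fell (7.69%). In these 2 lists none fell against the 8 d vehicle rats. The part of cell composition in the other results was not tested.

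The combination rats had nevirapine for 15 d with galactosamine added. The comparison with them and the one with vehicle share the nevirapine rats, so each gene's values are given side by side. Combination against nevirapine was called in 1763 genes (12.4%), 1323 higher (9.31%) and 440 lower (3.09%), and in 1023 without rat 87. Of 43 matrix genes, 27 were higher in the combination rats, and of 36 cell cycle genes 19, of 25 macrophage markers 17 and of 25 stellate cell genes 12.

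Among the 12 largest rises under nevirapine, 3 were higher still in the combination rats and 1 was lower. Cyp3a2 was at 11.35, 12.23 and 11.18 there, 2.50 ± 0.75 above nevirapine (adjusted p = 0.0214). Sema3c was at 7.59, 5.89 and 6.25, which was 1.81 log2 units below nevirapine alone (SE 0.41, adjusted p = 0.00207). Sult1e1 lay at 12.05, 11.67 and 11.98, a difference of 0.42 ± 0.67 that did not pass the test. Among the 12 largest falls, 3 were higher in the combination rats, Ly6e by 1.15 ± 0.20, Slc13a4 by 1.57 and Slc34a2 by 1.35.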

How the data were processed

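Biotin-labelled cRNA of 50 rat livers was measured on Affymetrix rat arrays of 31099 probe sets. The authors deposited log2 values, for which the submitters' processing notes name RMA and limma with no version. Of the probe sets, 20826 name 1 gene, 436 several and 9780 none, by the platform annotation. Each of 14217 genes was taken from its probe set with the highest mean over all arrays. The only depth measure is the number of arrays, 3 a group, which limits the precision.

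Log2 values were fitted with limma 3.58.1 (R 4.3.3), lmFit and eBayes, with 17 group means on all 50 arrays, so that the spread is estimated over all groups. P-values were adjusted by Benjamini-Hochberg over all genes, and adjusted p under 0.05 is a call. The highest mean of 27 bacterial control probe sets, 4.37 (log2), marks the level below which a fold is given only as a bound. On simulated data, 63% of genes changed 1.5-fold and 94% of genes changed 2-fold were called in this comparison.

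Genes are named where they were called, did not overlap and belonged to the top 12 by size in either direction, together with up to 5 called members of a described list and members with a set role. The members and lists were chosen with earlier results of these data known. The alternatives were other vehicle groups, normalization, filters, weights, probe set rules, a GAPDH covariate and each rat left out, and 3 arrays of other groups left out, chosen after seeing the data.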

Additional observations from a re-analysis of the deposited data

Results flagged for a closer look

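The effect of nevirapine differed between 15 d and 48 h in 1018 genes by the test of the difference itself. The GAPDH difference was uneven among the 48 h rats, and its part in this count was not tested. Among the 24 genes with the largest rises and falls at 15 d it differed in 3. The 15 d effect was higher than the 48 h effect by 1.2287 (log2) for Rnf6. It was lower for Fgf21, with a difference of -2.3461, and for Ly6e, with -1.2621. Rnf6 was lower in the 15 d vehicle rats than in the 8 d vehicle rats, by 1.20 on the log2 scale. The 15 d vehicle rats are shared by this comparison and the 15 d effect.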

How the results depend on the processing

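No paired analysis was possible because every rat has a number of its own and no number is shared between groups. Against 1978 called genes, 849 were called with the 8 d vehicle rats as control, 4299 with only the compared groups in the fit and 5018 with array weights. Over the other settings with all rats the count lay between 1890 and 2752, and 1147 to 1480 with each rat left out. For the 15 d effect minus the 48 h effect (1018), only the compared groups gave 2687, array weights 3784 and each rat left out 561 to 957. For combination against nevirapine (1763), leaving out the dimmest 40% of genes gave 1070, array weights 3547 and each rat left out 1023 to 1612. For the vehicle groups (473), the compared groups alone gave 1404, array weights 2379 and each rat left out 135 to 235. With the 8 d vehicle rats as control, 118 of the 1978 called genes turned direction, 1 of them called there too, and among the 168 called genes singled out by rule these were 5, Chac1 (0.0054), Chordc1 (-0.0263), Cp (-0.0263), Dnaja1 (-0.0061) and Eif4ebp1 (0.0101). Of the 24 largest rises and falls, 14 kept their call in every setting that tested them, and 8 lost it with the 8 d vehicle rats. The cause was not tested.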
